A study of Homo sapiens with 15 samples.

Results

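Described here are 10 genes of transforming growth factor beta (TGF-beta) and activin signalling in 12Z cells, an immortalised human endometriotic epithelial line. They were chosen by name, with earlier results of these data known. Members are the ligand genes TGFB1, TGFB2 and INHBA, the activin antagonist FST, the receptor genes TGFBR1 and TGFBR2, the transducer SMAD3, the inhibitors SMAD7 and SKIL, and TGFBI, which encodes a matrix protein named for its induction by TGF-beta. They are 10 of the 60617 gene identifiers counted, and all 10 were among the 23184 genes that averaged 1 count or more per library and so entered the test. RNA was sequenced from 15 libraries in 5 groups of 3. Cells of 4 groups received a pool of siRNAs against RSAD2 (siRSAD2), then a pBabe plasmid after 24 h. These were siRSAD2 H1047R insulin cells and siRSAD2 H1047R vehicle cells, whose plasmid carried PIK3CA H1047R, an activated catalytic subunit of phosphatidylinositol 3-kinase, and siRSAD2 empty-vector insulin cells and siRSAD2 empty-vector vehicle cells. The fifth group received a non-targeting siRNA pool, the empty vector and vehicle, and is called non-targeting cells below. After 4 h without serum, 100 nM insulin or vehicle was given in serum-free medium for 24 h. Both transfections were transient, in 1 cell line, with 1 siRNA pool against RSAD2. All tests of insulin and of H1047R were made within siRSAD2 cells.

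TGF-beta and activin are secreted dimers that bring a type II and a type I receptor kinase together at the cell surface, whereupon SMAD2 and SMAD3 are phosphorylated, join SMAD4 and enter the nucleus to regulate transcription. The signal is restrained outside the cell by traps such as follistatin, the product of FST, and inside it by SMAD7 and the SKI-like repressor SKIL, which are themselves induced by the pathway. In the endometrium and in endometriotic lesions, the pathway is known for its part in tissue repair, fibrosis and attachment of cells to matrix.

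The libraries held 16.1 to 39.7 M gene counts. RSAD2, which encodes the antiviral enzyme viperin, had 0.326 ± 0.324 CPM (counts per M after scaling of the library size) in siRSAD2 empty-vector vehicle cells, against 3.29 ± 0.36 CPM in non-targeting cells (SD, n = 3 each). PIK3CA, whose counts join the endogenous gene and the plasmid, had 211 ± 12 CPM in siRSAD2 H1047R vehicle cells, against 89.0 ± 4.1 CPM in siRSAD2 empty-vector vehicle cells (SD, n = 3 each). In siRSAD2 H1047R insulin cells it was lower than with vehicle, at 163 CPM (log2 fold change -0.38, adjusted p = 9.53e-06 by edgeR). RSAD2 averaged 0.899 and 0.837 CPM in siRSAD2 H1047R vehicle and insulin cells, against 0.326 and 0.331 CPM with the empty vector. Neither RSAD2 difference passed (adjusted p = 0.108 and 0.285 by edgeR), and the part of either gene in the results was not tested. Keratin transcripts of an epithelial cell were abundant, at a mean of 938 CPM for KRT8 and 645 CPM for KRT18, but the defining epithelial genes EPCAM and CDH1 averaged 0.251 and 0.570 CPM. The stromal genes VIM and COL1A1 averaged 1924 and 2521 CPM, so the epithelial label rests on keratins. Endothelial and immune markers summed to at most 12.2 and 12.3 CPM in any library. A split in the share of counts on the forward strand, which no label explains, ran between 8 libraries at 5.77% to 5.90% and 7 libraries at 6.11% to 6.50%. The second set holds all 6 H1047R libraries and library 3 of the empty-vector insulin group, so with vehicle the split and H1047R cannot be told apart. Library 3 of the siRSAD2 empty-vector vehicle group had the highest share of unmapped read pairs (8.31%, against 3.97% to 5.45% in the other 14).

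Scaled by exon length, the mean level over all libraries was highest for TGFBI, at 69.9 fragments per kilobase of exon and M mapped (FPKM), followed by TGFB1 at 31.6, TGFBR2 at 17.6, TGFBR1 at 15.4, SMAD3 at 10.2, FST at 7.55, TGFB2 at 4.89, SKIL at 3.32, SMAD7 at 2.18 and INHBA at 0.55 FPKM. TGFB1 thus led the 3 ligand transcripts, and INHBA, the subunit of activin A, was the scarcest member. INHBA had 69 to 192 counts per library, so that counting alone gives a coefficient of variation of 12.0% at the lowest count and 7.22% at the highest. FST varied most between libraries, with a highest level 2.48 times the lowest, and TGFBR1 varied least, with a ratio of 1.17.

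**Figure D1:**
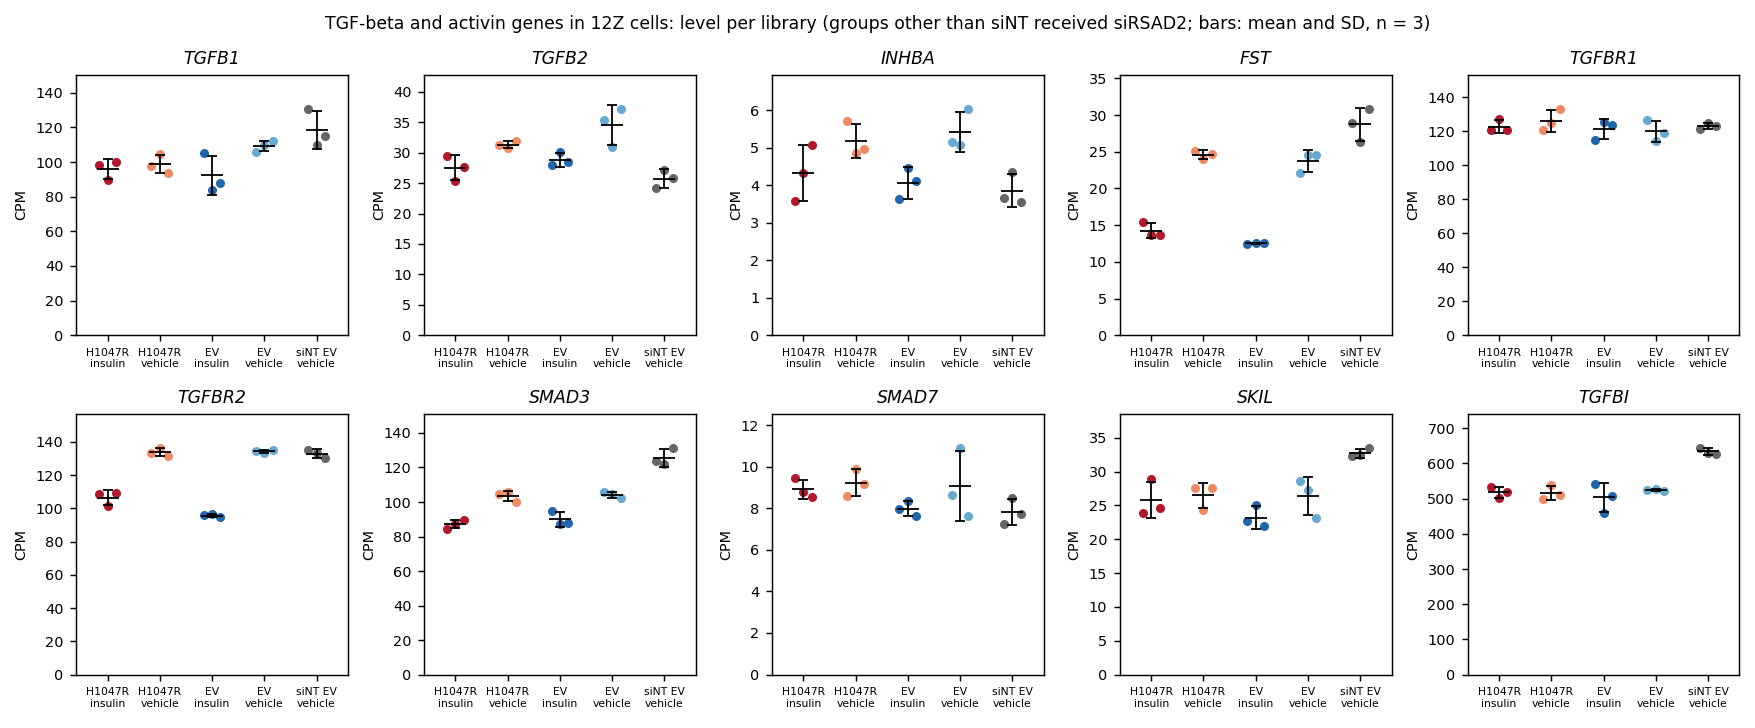
Level of each member in CPM (vertical axes, from 0) in each of the 15 libraries (points), by group, with the mean and SD of 3 libraries in black. FST, TGFBR2 and SMAD3 sit lower in both insulin groups than in their vehicle groups, and TGFBI and SKIL sit higher in non-targeting cells (siNT) than in every other group.

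The stretches upstream of 5 members that the results turn on are shown, so that genes that moved together can be read side by side. They are the 250 bases before the most upstream RefSeq start (build GRCh38.p14), read 5′ to 3′ on the gene's own strand. All 10 members matched the RefSeq table. A search on both strands used 5 motifs, namely the SMAD core CAGAC (in 38% of the 35116 listed promoters), the TEAD core GGAATG (11.9%), the AP-1 site TGANTCA (6.57%), the FOXO core TGTTTAC (2.98%) and the TATA element TATAAA (10.7%). Capitals mark a match. TGFB2 (chr1:218345086-218345335, plus strand) and INHBA (chr7:41703091-41703340, minus strand) were higher with siRSAD2. FST (chr5:53480379-53480628), TGFBR2 (chr3:30606106-30606355) and SMAD3 (chr15:67065352-67065601), all on the plus strand, were lower with insulin.
TGFB2: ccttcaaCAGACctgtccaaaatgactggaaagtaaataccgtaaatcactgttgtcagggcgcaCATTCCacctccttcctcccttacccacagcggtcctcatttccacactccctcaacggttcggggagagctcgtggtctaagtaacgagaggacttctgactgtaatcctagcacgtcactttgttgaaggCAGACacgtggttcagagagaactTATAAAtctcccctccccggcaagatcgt
INHBA: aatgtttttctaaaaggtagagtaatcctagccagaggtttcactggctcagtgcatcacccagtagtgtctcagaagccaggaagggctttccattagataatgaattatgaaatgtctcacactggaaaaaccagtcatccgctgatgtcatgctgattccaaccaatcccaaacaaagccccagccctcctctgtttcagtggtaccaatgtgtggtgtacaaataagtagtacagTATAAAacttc
FST: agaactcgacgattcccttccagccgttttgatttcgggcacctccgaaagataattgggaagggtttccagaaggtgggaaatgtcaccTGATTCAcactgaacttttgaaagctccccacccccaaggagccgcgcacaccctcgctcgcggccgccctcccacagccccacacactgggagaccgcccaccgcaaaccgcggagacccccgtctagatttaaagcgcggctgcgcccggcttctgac
TGFBR2: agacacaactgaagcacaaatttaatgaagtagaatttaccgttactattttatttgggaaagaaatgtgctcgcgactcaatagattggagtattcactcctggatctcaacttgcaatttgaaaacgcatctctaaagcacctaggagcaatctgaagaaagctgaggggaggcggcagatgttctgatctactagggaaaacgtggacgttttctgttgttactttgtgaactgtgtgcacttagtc
SMAD3: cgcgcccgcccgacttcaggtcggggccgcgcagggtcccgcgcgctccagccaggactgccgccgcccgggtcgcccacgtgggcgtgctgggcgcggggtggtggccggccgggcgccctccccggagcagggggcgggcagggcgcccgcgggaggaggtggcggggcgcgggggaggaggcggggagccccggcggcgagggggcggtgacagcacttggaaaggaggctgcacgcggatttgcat
The TGFB2 stretch held a TATAAA whose first base lies 29 bases before the start, a CAGAC at 243 and another at 53 bases, and a TEAD core on the minus strand at 185 bases. The INHBA stretch held a TATAAA at 11 bases. FST held an AP-1 match at 160 bases, and TGFBR2 and SMAD3 held none of the 5 motifs. The genes that fell together were also unlike in base composition, with 60.0% G and C in FST, 40.8% in TGFBR2 and 80.8% in SMAD3, against a median of 58.0% over all promoters. The RefSeq starts of INHBA, FST, TGFBR2 and SMAD3 differ from the starts of these genes in GENCODE release 44, which gave the coordinates below. A match is a string of letters in this window and no binding was measured.

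To ask how these genes differed with siRSAD2, siRSAD2 empty-vector vehicle cells were compared with non-targeting cells. With 1 siRNA pool, loss of RSAD2 and other effects of that pool cannot be told apart. The non-targeting libraries are numbered 4, 5 and 6, and those of each siRSAD2 group 1, 2 and 3. Any other difference between these sets of libraries therefore cannot be told apart from siRSAD2 either. With siRSAD2 the ligand genes TGFB2 and INHBA rose, and FST, SMAD3, SKIL and TGFBI fell, each by less than 1.5-fold. In all, 6 of 10 members passed the threshold of an adjusted p below 0.05 (edgeR quasi-likelihood test, Benjamini-Hochberg over all genes), where 19.5% of all genes tested did. All members but INHBA and SMAD7 averaged at least 10 CPM, a level that 9593 of the 23184 tested genes reached. The share called among genes of like level was not computed, here or in the comparisons below. The median log2 fold change was -0.08 over the members and 0.02 over all genes.

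TGFB2 (ENSG00000092969.12, hg38 chromosome 1, 218345336 to 218444619, plus strand), a TGF-beta isoform, had 35.4, 30.9 and 37.3 CPM in siRSAD2 empty-vector vehicle cells, against 24.2, 27.2 and 25.8 CPM in non-targeting cells. The groups did not overlap, and the log2 fold change was 0.42 ± 0.07 (SE, adjusted p = 6.89e-05 by edgeR). INHBA (ENSG00000122641.11, chromosome 7, 41667168 to 41705834, minus strand) had 5.15, 5.07 and 6.04 CPM with siRSAD2, against 3.65, 4.35 and 3.56 CPM with the non-targeting pool. These groups did not overlap either, with a log2 fold change of 0.49 ± 0.15 (SE, adjusted p = 0.0181 by edgeR). This call rests on few counts. It was lost without non-targeting library 4 (adjusted p = 0.0707), non-targeting library 6 (0.0645) or siRSAD2 empty-vector vehicle library 3 (0.109). TGFB1 (ENSG00000105329.10, chromosome 19, 41301587 to 41353922, minus strand), the most abundant ligand gene here, had 106, 110 and 112 CPM with siRSAD2, against 131, 110 and 115 CPM in non-targeting cells. Its groups overlapped and the difference did not pass the test (log2 fold change -0.12, 95% interval -0.26 to 0.02, adjusted p = 0.247 by edgeR).

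FST (ENSG00000134363.12, chromosome 5, 53480626 to 53487134, plus strand), whose product binds activin and blocks its access to receptors, had 22.1, 24.6 and 24.5 CPM in siRSAD2 empty-vector vehicle cells, against 28.9, 26.4 and 30.9 CPM in non-targeting cells. All siRSAD2 libraries were lower, with a log2 fold change of -0.27 ± 0.07 (SE, adjusted p = 0.00832 by edgeR). The call was lost without non-targeting library 6 (adjusted p = 0.101) or siRSAD2 empty-vector vehicle library 1 (0.082). INHBA and its antagonist thus moved in opposite directions in this comparison.

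SMAD3 (ENSG00000166949.16, chromosome 15, 67063763 to 67195173, plus strand), the transducer that receptors for TGF-beta and activin phosphorylate, had 106, 104 and 102 CPM with siRSAD2, against 124, 122 and 131 CPM with the non-targeting pool. The groups were apart, and the log2 fold change was -0.27 ± 0.05 (SE, adjusted p = 0.000119 by edgeR). SKIL (ENSG00000136603.14, chromosome 3, 170357342 to 170396835, plus strand), a repressor that binds SMAD complexes, had 28.6, 27.3 and 23.2 CPM with siRSAD2, against 32.3, 32.4 and 33.5 CPM in non-targeting cells. Its fall of -0.31 ± 0.08 on the log2 scale (SE, adjusted p = 0.00532 by edgeR) leaned on siRSAD2 empty-vector vehicle library 3, without which the adjusted p was 0.0619. TGFBI (ENSG00000120708.17, chromosome 5, 136028988 to 136063818, plus strand), which encodes a secreted protein that links collagen to integrins, had 526, 527 and 521 CPM with siRSAD2, against 644, 630 and 628 CPM with the non-targeting pool. Its groups did not overlap, with a log2 fold change of -0.27 ± 0.05 (SE, adjusted p = 5.74e-05 by edgeR). For TGFBI, SKIL, SMAD3 and FST, the lowest non-targeting library also stood above every library of the other 3 siRSAD2 groups.

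The receptor genes did not pass the test. TGFBR1 (ENSG00000106799.13, chromosome 9, 99104038 to 99154192, plus strand), the type I receptor kinase, had 120 ± 6 CPM in siRSAD2 empty-vector vehicle cells and 123 ± 2 CPM in non-targeting cells (SD, n = 3 each). TGFBR2 (ENSG00000163513.19, chromosome 3, 30606601 to 30694142, plus strand), the type II receptor that binds TGF-beta, had 134.3 ± 0.9 CPM and 133.0 ± 2.6 CPM in the same groups (SD, n = 3 each). The 95% intervals of the log2 fold change, -0.14 to 0.07 for TGFBR1 and -0.08 to 0.10 for TGFBR2, allow only small changes. SMAD7 (ENSG00000101665.9, chromosome 18, 48919853 to 48950965, minus strand), which blocks receptor signalling from inside the cell, had 8.64, 10.9 and 7.64 CPM with siRSAD2, against 7.26, 8.52 and 7.72 CPM with the non-targeting pool (log2 fold change 0.21, 95% interval -0.04 to 0.45, adjusted p = 0.247 by edgeR). The cell type markers also moved in this comparison. The 8 epithelial markers summed to 1909 to 2048 CPM with siRSAD2, against 2363 to 2397 CPM with the non-targeting pool, with 4 of 8 lower, and the 8 stromal markers summed to 6978 to 7075 CPM, against 7501 to 7887 CPM, with 7 of 8 lower and 1 higher. The endothelial markers summed to 11.0 to 12.2 CPM with siRSAD2, against 7.33 to 9.28 CPM, with 1 of 5 higher (KDR, 8.82 CPM, against 4.28 CPM). The immune markers summed to 4.80 to 12.3 CPM, against 4.35 to 6.18 CPM, with 1 of 5 tested higher (PTPRC, 0.884 to 9.03 CPM, against 0.715 to 1.59 CPM). The PTPRC ranges overlapped, and its siRSAD2 mean of 3.75 CPM was drawn up by the highest library. EPCAM and CDH1, and the endothelial genes PECAM1 and CDH5 (means of 0.248 and 0.714 CPM over the 15 libraries), were near 0, and the part of these shifts in the results was not tested. In bulk RNA, fewer cells of a kind and less RNA per cell cannot be told apart.

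**Figure D2:**
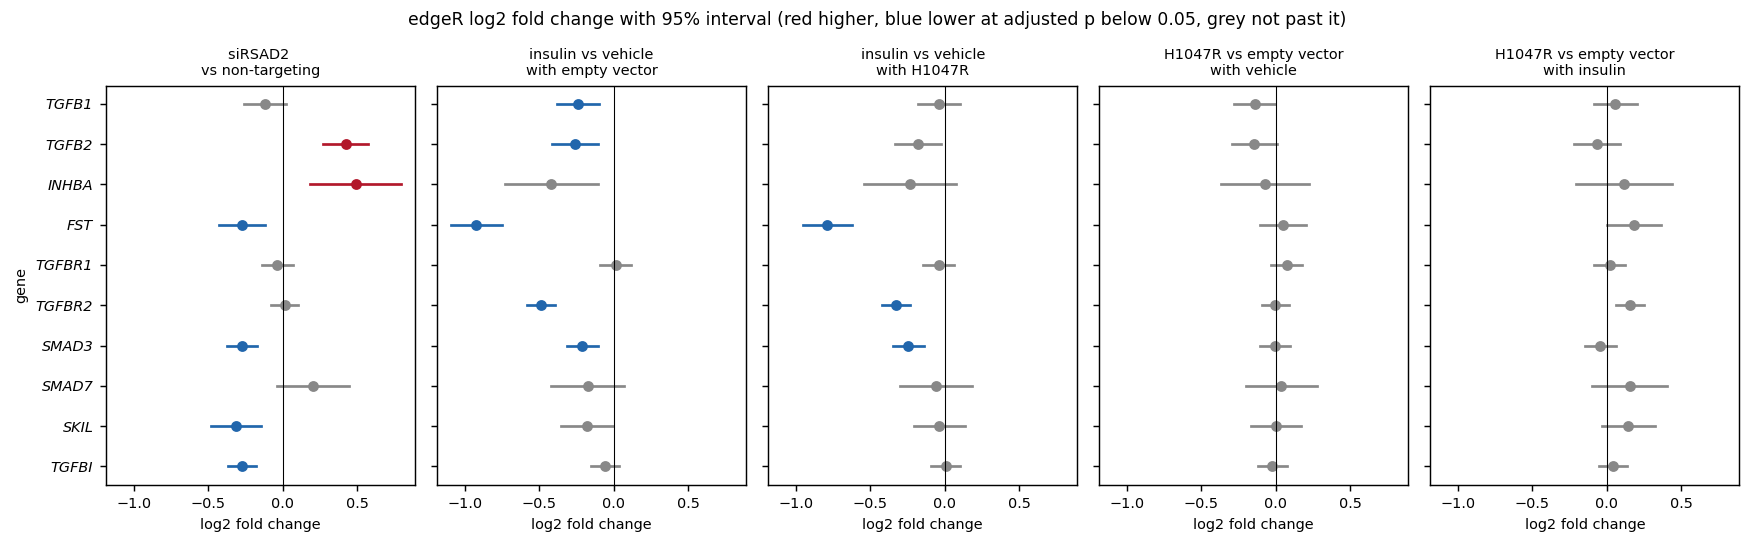
Log2 fold change (horizontal axes) of the 10 members in the 5 comparisons of 2 groups, with 95% intervals. Red and blue mark members higher or lower at an adjusted p below 0.05, and only FST, TGFBR2 and SMAD3 are blue in both insulin panels, while no member passes in the H1047R panels.

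The response to insulin was first read in siRSAD2 cells with the empty vector, whose vehicle libraries are also the siRSAD2 libraries of the comparison above. Insulin lowered FST, TGFBR2, SMAD3, TGFB2 and TGFB1, and FST fell by the most, 1.90-fold. A count of 5 of 10 members passed the threshold, all lower, where 6.28% of all genes tested passed in either direction (971 lower and 486 higher). The median log2 fold change was -0.22 over the members and 0.00 over all genes.

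FST had 12.5, 12.6 and 12.5 CPM in siRSAD2 empty-vector insulin cells, against 22.1, 24.6 and 24.5 CPM in siRSAD2 empty-vector vehicle cells. The insulin libraries were nearly alike and all lay below the vehicle libraries, with a log2 fold change of -0.92 ± 0.08 (SE, adjusted p = 3.39e-09 by edgeR). TGFBR2 had 95.9, 96.5 and 94.5 CPM with insulin, against 134.7, 133.3 and 134.9 CPM with vehicle, a log2 fold change of -0.49 ± 0.05 (SE, adjusted p = 7.02e-09 by edgeR). Its partner TGFBR1 had 121 ± 6 CPM with insulin and 120 ± 6 CPM with vehicle (SD, n = 3 each), and its 95% interval of -0.09 to 0.12 on the log2 scale lies apart from that of TGFBR2, -0.58 to -0.40.

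SMAD3 had 94.7, 87.5 and 87.6 CPM with insulin, against 106, 104 and 102 CPM with vehicle, and the groups did not overlap (log2 fold change -0.21 ± 0.05, SE, adjusted p = 0.00827 by edgeR). The falls of the ligand genes were small and less secure. TGFB2 had 27.98, 30.1 and 28.4 CPM with insulin, against 35.4, 30.9 and 37.3 CPM with vehicle (log2 fold change -0.26 ± 0.07, SE, adjusted p = 0.0314 by edgeR). TGFB1 had 105, 84.0 and 88.2 CPM with insulin, against 106, 110 and 112 CPM with vehicle (log2 fold change -0.24 ± 0.07, SE, adjusted p = 0.0343 by edgeR). In both genes the highest insulin library came close to the lowest vehicle library. The TGFB1 call was lost when empty-vector insulin library 2 or 3 or vehicle library 2 or 3 was left out (adjusted p = 0.0705 to 0.165), and the TGFB2 call when insulin library 1 or 3 or vehicle library 1 or 3 was (0.0688 to 0.178). With a term for the split in forward-strand share, FST, TGFBR2 and SMAD3 still passed and TGFB1 and TGFB2 did not (adjusted p = 0.122 and 0.0833 by edgeR). Only the empty-vector insulin group holds libraries on both sides of the split, so its library 3 alone sets this term. The run is therefore no separate check from leaving that library out. Log2 fold changes of TGFB1 and TGFB2 were -0.21 and -0.25 with the term, and -0.22 and -0.26 without that library. In a fit of these 2 groups alone, only FST and TGFBR2 passed.

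INHBA was also lower in every insulin library, at 3.62, 4.46 and 4.11 CPM, against 5.15, 5.07 and 6.04 CPM with vehicle, but the difference did not pass after adjustment (log2 fold change -0.42, 95% interval -0.73 to -0.11, adjusted p = 0.104 by edgeR). The inhibitor genes SMAD7 and SKIL did not pass, with log2 fold changes of -0.18 each and 95% intervals of -0.42 to 0.07 and -0.35 to -0.01. TGFBI, the most abundant member, had 541, 460 and 509 CPM with insulin, against 526, 527 and 521 CPM with vehicle, and its groups overlapped (log2 fold change -0.06, 95% interval -0.16 to 0.04). The 8 stromal markers summed to 5974 to 6673 CPM with insulin, against 6978 to 7075 CPM with vehicle, with 2 of 8 lower, and the epithelial markers to 1762 to 2063 CPM, against 1909 to 2048 CPM, with 1 of 8 lower (KRT18). The endothelial markers summed to 9.88 to 10.2 CPM, against 11.0 to 12.2 CPM, with 1 of 5 lower (KDR). The immune markers summed to 4.21 to 5.49 CPM, against 4.80 to 12.3 CPM, with 1 of 5 tested lower (PTPRC), the highest sum being in vehicle library 3. Without that library, FST, TGFBR2 and SMAD3 still passed, which makes 3 members, and the part of these shifts was not tested.

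With PIK3CA H1047R, insulin lowered FST, TGFBR2 and SMAD3, which had also fallen with the empty vector. These 3 of 10 members passed, all lower, where 2.47% of all genes tested did in either direction. FST had 15.4, 13.6 and 13.7 CPM in siRSAD2 H1047R insulin cells, against 25.1, 24.0 and 24.7 CPM in siRSAD2 H1047R vehicle cells (log2 fold change -0.79 ± 0.08, SE, adjusted p = 9.34e-08 by edgeR). TGFBR2 had 109, 102 and 109 CPM with insulin, against 133, 136 and 132 CPM with vehicle (log2 fold change -0.33 ± 0.05, SE, adjusted p = 1.46e-05 by edgeR). SMAD3 had 84.6, 87.5 and 89.6 CPM with insulin, against 105, 106 and 99.9 CPM with vehicle (log2 fold change -0.25 ± 0.05, SE, adjusted p = 0.00296 by edgeR). In all 3 genes every insulin library lay below every vehicle library. The SMAD3 call was lost without H1047R insulin library 1 (adjusted p = 0.0535).

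TGFB2 had 29.4, 25.4 and 27.7 CPM in siRSAD2 H1047R insulin cells, against 31.2, 30.8 and 31.9 CPM in siRSAD2 H1047R vehicle cells. Each insulin library was lower, but the difference did not pass (log2 fold change -0.18, 95% interval -0.34 to -0.03, adjusted p = 0.304 by edgeR). TGFB1, at 98.6, 89.4 and 100.2 CPM with insulin against 97.8, 104 and 93.9 CPM with vehicle, showed overlapping groups (log2 fold change -0.04, 95% interval -0.18 to 0.10). INHBA had 3.58, 4.33 and 5.08 CPM with insulin, against 5.70, 4.85 and 4.97 CPM with vehicle, and these groups overlapped too (log2 fold change -0.23, 95% interval -0.54 to 0.07). TGFBR1, SMAD7, SKIL and TGFBI had log2 fold changes between -0.06 and 0.01. The stromal markers summed to 6366 to 6847 CPM with insulin, against 6684 to 6852 CPM with vehicle, with 2 of 8 lower, and the part of this was not tested.

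Whether H1047R altered the insulin effect was tested by the interaction, the insulin effect with H1047R minus that with the empty vector. No member passed (edgeR), 1 had an unadjusted p below 0.05, and DESeq2 called 0. Over all genes edgeR called 0%, with 1611 genes at an unadjusted p below 0.05 and 0 calls by DESeq2. The member with the smallest p was TGFBR2, which fell by 0.33 on the log2 scale with H1047R and by 0.49 with the empty vector (interaction 0.16, 95% interval 0.03 to 0.29, unadjusted p = 0.0182, adjusted p = 0.698 by edgeR). For FST the interaction was 0.13 (95% interval -0.10 to 0.37), for SMAD3 -0.04 (95% interval -0.18 to 0.11) and for TGFB1 0.20 (95% interval 0.00 to 0.40, adjusted p = 0.714 by edgeR). The calls of TGFB1 and TGFB2 with one vector and not the other are therefore not shown to differ between vectors.

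PIK3CA H1047R by itself was set against the empty vector at each treatment. With vehicle, no member passed by edgeR (1 at an unadjusted p below 0.05, and 0 by DESeq2), where 1.36% of all genes tested passed. All log2 fold changes lay between -0.14 and 0.07. Of the cell type markers, PTPRC passed (0.749 to 1.11 CPM with H1047R, against 0.884 to 9.03 CPM with the empty vector), and its part was not tested. The nearest was TGFB1, with 97.8, 104 and 93.9 CPM in siRSAD2 H1047R vehicle cells, against 106, 110 and 112 CPM in siRSAD2 empty-vector vehicle cells, which did not overlap (log2 fold change -0.14, 95% interval -0.28 to 0.00, adjusted p = 0.387 by edgeR). TGFBR2 (95% interval -0.10 to 0.09) and TGFBI (-0.12 to 0.07) had the narrowest intervals. With vehicle, H1047R and the split in forward-strand share cannot be told apart, so these intervals bound both together and not the mutant kinase alone. With insulin, again no member passed by edgeR (2 at an unadjusted p below 0.05), where 0.285% of all genes tested did, and DESeq2 called 1 member, TGFBR2. TGFBR2 had 109, 102 and 109 CPM in siRSAD2 H1047R insulin cells, against 95.9, 96.5 and 94.5 CPM in siRSAD2 empty-vector insulin cells. These groups did not overlap, with a log2 fold change of 0.16 ± 0.05 (SE, adjusted p = 0.16 by edgeR and 0.0349 by DESeq2). FST likewise stood at 15.4, 13.6 and 13.7 CPM with H1047R, against 12.5, 12.6 and 12.5 CPM with the empty vector, without passing (log2 fold change 0.18, 95% interval 0.00 to 0.36, adjusted p = 0.463 by edgeR).

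Across the 5 groups, the mean level of FST was low in siRSAD2 H1047R insulin cells (14.3 CPM) and lowest in siRSAD2 empty-vector insulin cells (12.5 CPM). It stood at 24.6 CPM in siRSAD2 H1047R vehicle cells and 23.8 CPM in siRSAD2 empty-vector vehicle cells, whose libraries overlapped, and was highest in non-targeting cells (28.7 CPM). SMAD3 ran alike, with 87.2 CPM with H1047R and 89.9 CPM with the empty vector under insulin, 103 CPM with H1047R and 104 CPM with the empty vector under vehicle, and 126 CPM in non-targeting cells. Within each treatment its libraries overlapped between the vectors. TGFB2 and INHBA ran otherwise. Their highest means were in siRSAD2 empty-vector vehicle cells (34.5 and 5.42 CPM) and their lowest in non-targeting cells (25.7 and 3.85 CPM). The means of the other 3 siRSAD2 groups lay between these.

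Ratios between members of 1 library were formed after the values had been seen and are given as a description, without a test. The length-scaled level of INHBA over that of its antagonist FST was 0.102 ± 0.023 in siRSAD2 H1047R insulin cells and 0.0697 ± 0.0049 in siRSAD2 H1047R vehicle cells (SD, n = 3 each). With the empty vector it was 0.108 ± 0.011 in siRSAD2 insulin cells and 0.0759 ± 0.0068 in siRSAD2 vehicle cells, against 0.0450 ± 0.0087 in non-targeting cells (SD, n = 3 each). FST transcripts thus exceeded INHBA transcripts in every library, and on average by least in the insulin groups, although 1 H1047R insulin library lay within the range of the empty-vector vehicle libraries. TGFBR2 over TGFBR1 was 1.01 ± 0.07 in siRSAD2 H1047R insulin cells and 1.24 ± 0.08 in siRSAD2 H1047R vehicle cells, and 0.921 ± 0.046 in siRSAD2 empty-vector insulin cells and 1.31 ± 0.06 in siRSAD2 empty-vector vehicle cells, against 1.26 ± 0.03 in non-targeting cells (SD, n = 3 each). TGFB2 over TGFB1 was 0.171 ± 0.016 in siRSAD2 empty-vector vehicle cells and 0.118 ± 0.017 in non-targeting cells (SD, n = 3 each), and it ranged over 0.143 to 0.194 in the 12 siRSAD2 libraries.

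**Figure D3:**
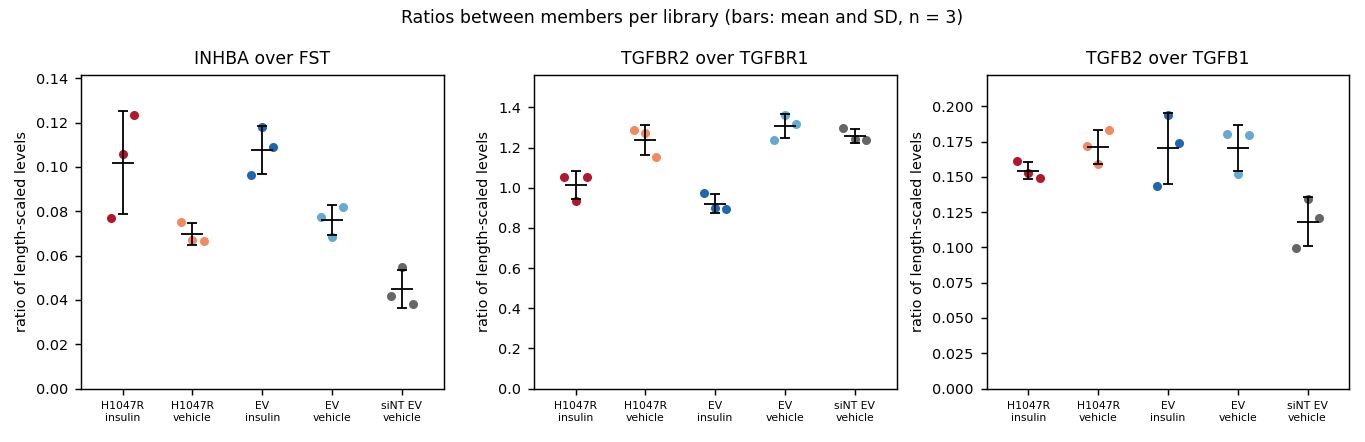
Ratio of length-scaled levels (vertical axes, from 0) for 3 pairs of members in each library (points), with the mean and SD of 3 libraries in black. INHBA over FST is lowest in non-targeting cells (0.0383 to 0.0548), and TGFBR2 over TGFBR1 is lower in both insulin groups than in the vehicle groups.

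Other genes of the pathway were read from 6 lists. In siRSAD2 empty-vector vehicle cells against non-targeting cells, 24 of 35 TGF-beta induced targets changed, 16 higher and 8 lower, where 19.5% of all genes tested changed. The list also holds ID1, ID2 and ID3, and ID2 is among the 16 (log2 fold change 0.47). Pathway activity was not measured, and these counts do not show which ligand, if any, moved a target. CCN2, a matricellular growth factor, had 82.4 CPM (78.5 to 86.6) with siRSAD2, against 43.3 CPM (40.0 to 45.5) with the non-targeting pool (log2 fold change 0.93, adjusted p = 3.73e-13 by edgeR). Its groups did not overlap. Of 15 other genes on the ligand list, 4 rose by edgeR and by DESeq2, and none fell by either tool or at an unadjusted p below 0.05 (0 genes). The list includes BMP1, a protease, and genes far under 1 CPM such as NODAL, for which a fall could hardly be called. GDF15, a stress-induced member, had 20.5 CPM with siRSAD2, against 6.72 CPM with the non-targeting pool, and GDF11 had 115 CPM, against 78.4 CPM (log2 fold changes 1.60 and 0.56). For both, every siRSAD2 library stood above every non-targeting library. Of 23 ligand traps and latency proteins, 5 rose and 6 fell. This list also holds proteins that release latent TGF-beta, so it is not a list of inhibitors alone. FSTL1, a secreted glycoprotein of the follistatin family, had 147 CPM with siRSAD2, against 624 CPM with the non-targeting pool (log2 fold change -2.08 ± 0.05, SE, adjusted p = 2.5e-24 by edgeR). ITGB8, the integrin subunit that helps to release latent TGF-beta, had 51.9 CPM, against 85.8 CPM (log2 fold change -0.72, adjusted p = 2.5e-10 by edgeR). The modulators split 6 higher and 4 lower of 20, with USP11, a deubiquitinase, at 0.30 and ZFYVE9, which anchors SMADs at endosomes, at 0.23 on the log2 scale. Of 13 receptors and coreceptors, 2 rose (the pseudoreceptor BAMBI and the coreceptor RGMB, log2 fold changes 0.47 and 0.20) and 2 fell, and 1 of 6 other SMAD genes fell (SMAD5, which carries bone morphogenetic protein signals, -0.15). The shares of ligands and SMAD genes called (4 of 15 and 1 of 6) are near that of all genes. The receptor calls changed with the libraries used: without non-targeting library 5 or 6 there was 1, and without siRSAD2 empty-vector vehicle library 1 or 2 there were 2. The SMAD5 call was lost without non-targeting library 6 or siRSAD2 empty-vector vehicle library 2. The median log2 fold change was 0.19 for the targets, 0.27 for the ligand list and 0.09 for the traps and latency proteins, beside 0.02 over all genes.

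With insulin and the empty vector, where 6.28% of all genes tested changed, 10 of 23 ligand traps and latency proteins fell, and none rose by edgeR, by DESeq2 or at an unadjusted p below 0.05 (0 genes). NOG, a trap of bone morphogenetic proteins, had 4.13 CPM in siRSAD2 empty-vector insulin cells, against 8.94 CPM in siRSAD2 empty-vector vehicle cells (log2 fold change -1.13 ± 0.13, SE, adjusted p = 5.86e-07 by edgeR). THBS1, which activates latent TGF-beta, had 910 CPM, against 1286 CPM (log2 fold change -0.50 ± 0.06, SE, adjusted p = 6.93e-07 by edgeR). FST, whose product is a trap, is counted apart from this list. Among 35 induced targets, 9 fell and 3 rose, with CCN2 at 34.8 CPM with insulin, against 82.4 CPM with vehicle, and LOX, a collagen cross-linking enzyme, at 325 CPM, against 450 CPM (log2 fold changes -1.24 and -0.47). Of 20 modulators, 8 fell and 1 rose, and without vehicle library 3 these were 5 and 0. They include PPP1R15A, a phosphatase subunit, and SMURF2, a ubiquitin ligase that targets receptors with SMAD7 (log2 fold changes -0.40 and -0.28). GDF15 was higher with insulin (28.3 CPM, against 20.5 CPM with vehicle) and BMP4 lower (17.3 CPM, against 22.0 CPM), and of 15 genes on the ligand list 2 rose and 1 fell. None of 13 other receptors passed (edgeR, 3 at an unadjusted p below 0.05, and 0 by DESeq2), and none of 6 other SMAD genes did (0 at an unadjusted p below 0.05, and 0 by DESeq2). The median log2 fold change was -0.27 for the traps and latency proteins and -0.06 for the targets, beside 0.00 over all genes.

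With insulin and H1047R, where 2.47% of all genes tested changed, 7 of 23 ligand traps and latency proteins fell. Among them were HTRA1, a secreted serine protease, and the integrin subunit ITGB8 (log2 fold changes -0.41 and -0.40). NOG and THBS1 were also among them (-0.73 and -0.29, adjusted p = 0.000499 and 0.00274 by edgeR). HTRA1 had 101.5 CPM in siRSAD2 H1047R insulin cells, against 135 CPM in siRSAD2 H1047R vehicle cells. With the empty vector, HTRA1 averaged 98.9 CPM with insulin and 133 CPM with vehicle, and ITGB8 41.3 and 51.9 CPM. Of 35 targets 5 fell and 1 rose, and CCN2 had 40.5 CPM with insulin, against 81.0 CPM with vehicle (log2 fold change -0.998 ± 0.059, SE, adjusted p = 2.03e-12 by edgeR). LOX had 331 CPM, against 430 CPM. Of 20 modulators 4 fell, with PPP1R15A and SMURF2 leading again (log2 fold changes -0.47 and -0.42). GDF15 rose here as well (28.7 CPM with insulin, against 20.6 CPM with vehicle), as did INHBE, a liver activin subunit that stood at only 2.01 CPM, against 0.700 CPM. INHBE averaged 1.36 CPM with insulin and 0.502 CPM with vehicle in the siRSAD2 empty-vector groups. Without H1047R insulin library 2 or any 1 vehicle library there was 1 ligand call in place of 2. ACVR2B, an activin type II receptor, fell (9.57 CPM, against 12.5 CPM, adjusted p = 0.0428 by edgeR), a call lost without any 1 of the 6 libraries. For H1047R against the empty vector, edgeR called 1 of 112 genes of the 6 lists at each treatment. Of all genes tested, 1.36% passed with vehicle and 0.285% with insulin. At an unadjusted p below 0.05 (edgeR) stood 16 of the 112 with vehicle and 17 with insulin, beside 2891 and 2440 of all 23184 genes. DESeq2 called 1 of the 112 with vehicle and 3 with insulin. The edgeR call with vehicle was POSTN, a matrix protein, at 209.7 CPM in siRSAD2 H1047R vehicle cells, against 256 CPM in siRSAD2 empty-vector vehicle cells. With insulin it was SPHK1, a sphingosine kinase, at 20.1 CPM in siRSAD2 H1047R insulin cells, against 15.01 CPM in siRSAD2 empty-vector insulin cells. The SPHK1 comparison gave between 0 and 5 calls among the targets as single libraries were left out.

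**Figure D4:**
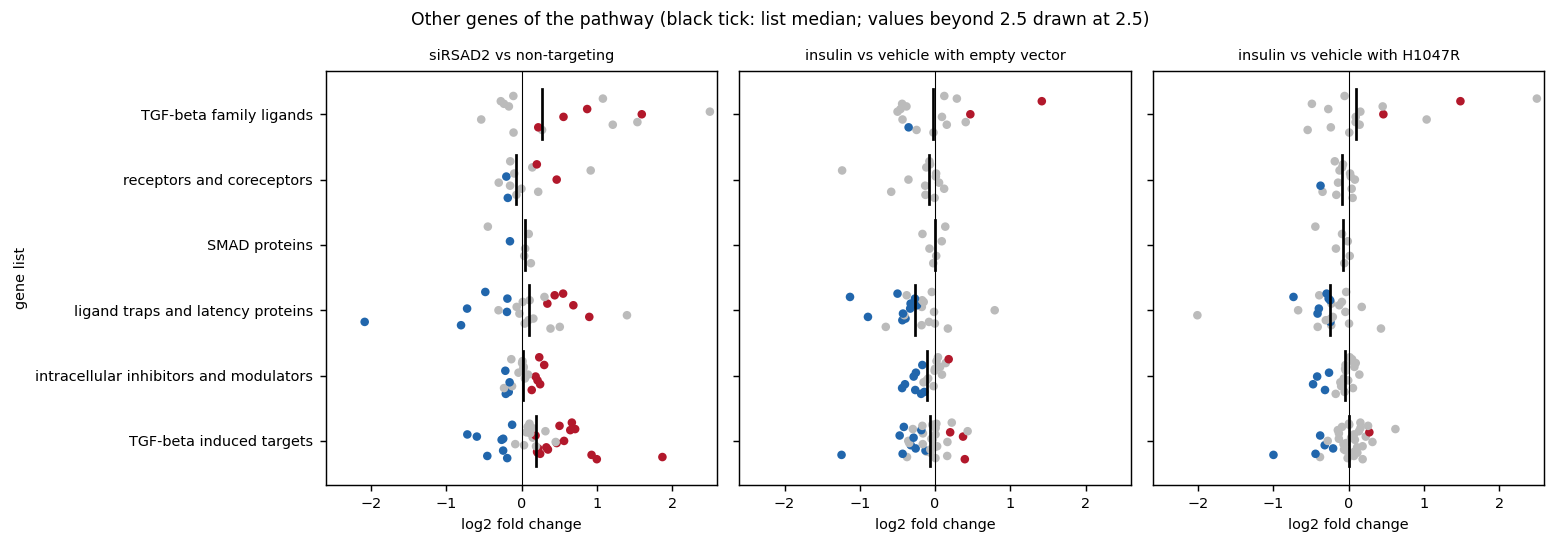
Log2 fold change (horizontal axes) of the other pathway genes in 6 lists, for siRSAD2 against non-targeting cells and for insulin against vehicle with each vector. Points are genes, red higher and blue lower at an adjusted p below 0.05, and black ticks are list medians, the lowest of which is that of the ligand traps and latency proteins in both insulin panels (-0.27 and -0.24).

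Some members overlap other genes. Exons of TGFB2 share 1371 bases with TGFB2-OT1 on the same strand, which had 0 counts in every library, and the antisense TGFB2-AS1 had 0 to 9 counts and INHBA-AS1 0 to 13. TGFB1 overlaps exons of HNRNPUL1 on the other strand by 215 bases, and the counts used are strand-specific.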

How the data were processed

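RNA sequencing of 15 libraries was read from the gene counts the authors deposited, 1 file per library. Per the labels and the study's methods, mRNA libraries were made from 500 ng of total RNA, and paired reads were trimmed with cutadapt and Trim Galore, checked with FastQC and aligned to hg38 with STAR, whose raw gene counts are not normalised. Versions are not given in the sources used here, and the annotation release named there is numbered as a mouse release although the identifiers are human. Of 3 deposited count columns (unstranded, forward, reverse), the reverse-stranded counts were used, as in the study. Of 60617 identifiers, 60357 matched GENCODE release 44, which gave symbols, exon lengths and hg38 coordinates. Unmapped, multimapping, intergenic and ambiguous pairs (22.2% to 30.5% of pairs) stayed out.

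Genes averaging 1 count or more per library entered a single edgeR 4.0.16 model (R 4.3.3) with group means as its terms, TMM scaling and the quasi-likelihood F test. P values were adjusted by Benjamini-Hochberg over 23184 genes at a threshold of 0.05, with 10 residual degrees of freedom. CPM is a gene's count per M counts of the library, after TMM scaling, and the fold changes are edgeR's. Groups came from the labels, n = 3 libraries each, and the study describes independent experiments. Intervals are 95% and follow the spread between libraries. Comparisons that share a group share its libraries. The fit was tested on simulated data.

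The 10 members and all gene lists were chosen with earlier results of these data known. Genes named from a list are the 2 of smallest p that passed the threshold and had a mean of at least 1 CPM, per comparison. Some genes that these rules name are not reported here. Alternatives were DESeq2 1.42.0, RLE factors, the edgeR filter or none, a threshold of 0.001, unstranded counts, only the groups compared, a replicate block, and leaving out every library in turn. A term for the split in forward-strand share was added after the data were seen. It is set by empty-vector insulin library 3, the only library that parts from its group in that split. Promoter sequences are from RefSeq (GRCh38.p14).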

Additional observations from a re-analysis of the deposited data

How the results depend on the processing

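Among the fold changes of single members, none reversed under any alternative, and 15 of 420 leave-one-out values and 5 of 470 others lost a call, while 1 gained one (TGFBR2, H1047R against empty vector with insulin, by DESeq2). These totals include members not called in the main fit, which could not lose a call. Of the 6 calls with siRSAD2, those of INHBA, FST and SKIL were lost in at least 1 run. The same held for TGFB1, TGFB2 and SMAD3 among the 5 with insulin and the empty vector, and for SMAD3 among the 3 with insulin and H1047R. The falls of FST and TGFBR2 with insulin held in every alternative run. At a threshold of 0.001, as the study used, 3 members passed for siRSAD2 against non-targeting (6 at 0.05) and 2 for insulin with the empty vector (5 at 0.05). This last count was also 2 with only the groups compared, 3 with the term for the split in forward-strand share, and 3 to 4 as single libraries were left out, with 3 without insulin library 3 or vehicle library 3. DESeq2 called 1 member for H1047R with insulin, against 0. Replicate numbers showed no clear pairing of the libraries, and with 3 libraries per group the check cannot exclude one. Deviations of same-numbered libraries correlated at -0.28 to 0.38 (median -0.02, 18 pairs), and 5 of 12 libraries correlated best with their own number. With the replicate block, members called stayed at 5 (insulin, empty vector), 3 (insulin, H1047R) and 0 (H1047R with vehicle or insulin, interaction), and all genes called were 1337, 522, 271, 73 and 0. No paired analysis was possible for siRSAD2 against non-targeting because these groups share no replicate number.

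Over all genes, the threshold of 0.001 gave 1761 calls for siRSAD2 (4530 at 0.05), 353 for insulin with the empty vector (1457), 205 for insulin with H1047R (573), 11 for H1047R with vehicle (316) and 13 for H1047R with insulin (66). With only the groups compared, the last 4 counts were 520, 1272, 546 and 39. Without a filter, 707 genes were called for H1047R with vehicle, 418 for H1047R with insulin and 81 for the interaction. With the forward-strand term, which empty-vector insulin library 3 alone sets, H1047R gave 3 with vehicle and 20 with insulin, and DESeq2 gave 154 with insulin. As single libraries were left out, counts ran over 947 to 1844 (insulin, empty vector), 354 to 416 (insulin, H1047R), 64 to 305 (H1047R with vehicle), 19 to 463 (H1047R with insulin) and 0 to 1 (interaction). The cause was not tested. INHBA and SMAD7, at 69 to 192 and 128 to 392 counts, are the members whose precision depth limits most.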

Other observations

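The levels of some members followed each other over the 15 libraries. Pearson's r of log2 CPM was 0.95 between FST and TGFBR2, 0.88 between FST and SMAD3 and 0.75 between TGFB2 and INHBA. These values describe points that fall into treatment groups and share library depth, and they carry no p.

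For each member, genes with the most similar levels were taken from the other genes with a mean of at least 10 CPM (9593 for INHBA and SMAD7, which lie under that mean, and 9592 for the other 8), over the same 15 libraries. Nearest to FST were ALDH1A3 (r = 0.98), which makes retinoic acid, the ETS factor ETV4 (0.98) and the kinase PIM1 (0.97). Nearest to TGFBR2 were the matricellular protein CCN1 (0.97), the receptor kinase AXL (0.96) and CEMIP (0.96), which degrades hyaluronan. SMAD3 ran closest to IRF2BP2, ZNF395 and TIMP2 (0.97 each), and TGFBI to NUP62 (0.97) and KCNMA1 (0.96). TGFB1 ran closest to TEX261, MICAL2 and MYO1C (0.96 each), and SKIL to MANEA (0.91), APP (0.90) and BRIP1 (0.89). For TGFB2 these were TRIB1 (0.91), NPY (0.89) and CAMK2N1 (0.89), and for INHBA the cytoskeletal regulator RND3 (0.86), ADAMTS5 and SRPX2 (0.85 each). TGFBR1 and SMAD7, which passed in no comparison, had the weakest nearest genes, SPCS3 (0.81) and R3HCC1L (0.82).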
